A study of Homo sapiens with 4 samples.

Results

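The genes described here were the 38 HOX cluster genes listed for this work, which lie in the HOXA, HOXB, HOXC and HOXD clusters and are 38 of the 19970 protein-coding genes that GENCODE places on chromosomes 1 to 22 and X. They were chosen by name and position, with no measured value: 10 lie in HOXA, 10 in HOXB, 9 in HOXC and 9 in HOXD. The data were H3K27ac ChIP-seq peaks of SK-N-BE(2)C cells, a MYCN-amplified neuroblastoma line, in which acetylation of lysine 27 of histone H3 marks active promoters and enhancers. The sgCtrl group (genotype wildtype, non-targeting control gRNA) and the sgSNHG1 group (genotype SNHG1 knockout, SNHG1 gRNA) held 2 samples each. Knockout is the word of the label: the paper states that its approach repressed SNHG1 expression without removing it completely. Both groups had received Cas9 with dual guide RNAs and pSurrogate reporters, puromycin selection and sorting into single-cell clones, and both were grown in the same medium. The sgCtrl cells were a single clone, the sources used here do not say which sgSNHG1 clone was used for ChIP-seq, and a difference between the groups cannot be told apart from a difference between clones. The authors pooled both samples of a group before calling peaks, so there was 1 peak list per group. There was thus no error between replicates and no test of a difference, and every interval below covers counting error only. Intervals of fragment ratios take each fragment as an independent count. Duplicates were kept when peaks were called, so these intervals may be too narrow.

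HOX genes encode homeodomain transcription factors that give cells along the head-to-tail axis of the embryo their positional identity. Their order along a chromosome matches the order of their expression domains, with the anterior genes (low paralogue numbers) at the end of the cluster that opens early and the posterior genes (high numbers) at the other end. Inactive stretches are held by Polycomb and H3K27 methylation, active stretches carry H3K27 acetylation, and sympathetic neurons, the lineage of neuroblastoma, arise from trunk neural crest cells that carry a HOX code of their own.

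The sgCtrl list held 63699 peaks and the sgSNHG1 list held 50119, which is 0.787 times as many. The depth of the samples is unknown, but the number of fragments over each summit (the highest point of a peak) could be recovered from the deposited values as a whole number, within 0.01, for 99.9% of the peaks of each list. The lowest called summit held 19 fragments in sgCtrl and 18 in sgSNHG1, and the genome background, taken as the 1st percentile of the local backgrounds, was 4.89 and 4.66 fragments. Ratios of fragments below were scaled by these backgrounds. The adrenergic markers of neuroblastoma (HAND2, GATA2, GATA3, ISL1, TBX2, DBH, TH, CHGA and MYCN) had a peak in both lists for 9 of 9 genes, with a median of 17.1% of the gene window under peaks in sgCtrl and 18.8% in sgSNHG1. Gene by gene, the covered length was higher in sgSNHG1 for 4 and lower for 5, with a median log2 ratio (sgSNHG1 over sgCtrl) of −0.08. DBH was the only gene of these with a covered length at least 2-fold lower (873 bp in sgCtrl and 228 bp in sgSNHG1), beside 9.31% of all genes with a peak in both lists. Before scaling, the highest summit held fewer fragments in sgSNHG1 at HAND2 (273 and 125), TH (155 and 102), MYCN, GATA3 and DBH. It held more at ISL1 (179 and 248), CHGA (194 and 235), GATA2 and TBX2. The genes given with fragments were picked out after their values were seen. Of 8 mesenchymal markers, 6 had a peak in both lists. Of 12 markers of other cell types, 6 had a peak in both lists (PTPRC, SPI1, EPCAM, CDH1, MYOD1 and ACTA1) and 6 had none in either (APOA2, ALB, MLANA, TYR, CD3E and KRT5). Of all protein-coding genes, 70.3% had a peak in both lists and 22.1% in neither, so the count of mesenchymal markers lay near the share over all genes.

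The sequences under the HOX peaks that the results turn on are given first. Each is the 200 bases around a summit, read 5′ to 3′ from the plus strand of GRCh38, with CG dinucleotides in capitals because these windows were dense in them. The HOXD8-HOXD3 peak (chr2:176136583-176136782) had the most fragments of all HOX peaks in sgSNHG1. The HOXC4-HOXC6 intron peak (chr12:54019289-54019488) had the largest ratio of fragments in HOXC. The HAGLR peak (chr2:176174723-176174922) and the peak beside it (chr2:176175265-176175464) were called in sgSNHG1 alone. The HOXA10 peak (chr7:27173440-27173639) was the only peak along HOXA in sgCtrl, and the HOXA3 peak (chr7:27107982-27108181) the only one in sgSNHG1. The MIR615 peak (chr12:54033925-54034124) covered a microRNA hairpin in both lists.
HOXD8-HOXD3 peak: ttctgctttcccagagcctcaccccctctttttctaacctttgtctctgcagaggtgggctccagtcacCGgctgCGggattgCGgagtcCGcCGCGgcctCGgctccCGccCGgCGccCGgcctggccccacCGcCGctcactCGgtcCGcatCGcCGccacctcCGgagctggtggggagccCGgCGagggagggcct
HOXC4-HOXC6 intron peak: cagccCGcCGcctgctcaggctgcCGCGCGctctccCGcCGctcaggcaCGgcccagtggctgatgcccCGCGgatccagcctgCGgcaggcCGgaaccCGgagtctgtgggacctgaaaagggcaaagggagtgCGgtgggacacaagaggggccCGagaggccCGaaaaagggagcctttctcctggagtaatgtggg
HAGLR peak: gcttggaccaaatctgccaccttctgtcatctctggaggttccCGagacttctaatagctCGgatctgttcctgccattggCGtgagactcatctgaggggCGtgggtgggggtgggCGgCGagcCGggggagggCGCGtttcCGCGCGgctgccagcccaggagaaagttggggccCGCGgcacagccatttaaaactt
Peak beside the HAGLR peak: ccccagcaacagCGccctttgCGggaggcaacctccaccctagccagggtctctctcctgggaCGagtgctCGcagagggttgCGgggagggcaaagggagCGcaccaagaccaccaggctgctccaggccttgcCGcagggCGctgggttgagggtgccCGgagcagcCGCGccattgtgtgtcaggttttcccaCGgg
HOXA10 peak: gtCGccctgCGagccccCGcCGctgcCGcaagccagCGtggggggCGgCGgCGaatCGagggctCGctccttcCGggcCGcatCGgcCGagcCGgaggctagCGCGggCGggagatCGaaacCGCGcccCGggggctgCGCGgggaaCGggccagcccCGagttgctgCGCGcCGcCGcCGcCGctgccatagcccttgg
HOXA3 peak: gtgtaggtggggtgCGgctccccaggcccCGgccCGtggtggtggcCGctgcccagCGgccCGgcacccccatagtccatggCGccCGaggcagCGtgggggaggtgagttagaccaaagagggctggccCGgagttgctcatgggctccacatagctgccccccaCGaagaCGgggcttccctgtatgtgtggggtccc
MIR615 peak: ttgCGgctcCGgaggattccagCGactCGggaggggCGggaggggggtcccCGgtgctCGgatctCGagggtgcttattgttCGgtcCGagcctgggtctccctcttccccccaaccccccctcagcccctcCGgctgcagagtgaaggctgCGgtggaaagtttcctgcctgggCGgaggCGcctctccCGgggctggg

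These 7 windows held 20, 16, 14, 12, 33, 12 and 15 CG dinucleotides in the order printed. Over all peaks along the 4 clusters the median was 17 per 200 bases in sgCtrl (38 peaks) and 15.5 in sgSNHG1 (30 peaks), beside 8 and 9 over all peaks of the lists, so HOX summits lay in sequence richer in CG than the usual peak. GC content was less far apart, with medians of 70.2% and 70% at HOX summits and 64.5% and 65% over all peaks.

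A smaller share of HOX genes than of all protein-coding genes carried an H3K27ac peak, in both lists. The number was lower in sgSNHG1 than in sgCtrl in the lists as deposited, but with lists of equal size it was 15 in each, and with a −log10 p of at least 10 it was 15 in sgCtrl and 13 in sgSNHG1. A gene was counted when a peak overlapped its body plus 2 kb on either side. In the sgCtrl list 21 of 38 HOX genes had a peak (55.3%, beside 75.2% of all protein-coding genes), and in the sgSNHG1 list 15 had one (39.5%, beside 73.0%). The 14 genes with a peak in both lists were HOXB2, HOXB3, HOXB4, HOXC4, HOXC5, HOXC6, HOXC8, HOXC9, HOXD1, HOXD3, HOXD4, HOXD8, HOXD9 and HOXD10, beside 70.3% of all genes. The 7 genes with a peak in sgCtrl only were HOXA9, HOXA10, HOXB7, HOXB8, HOXB13, HOXC12 and HOXC13, beside 4.88% of all genes, and HOXA3 alone had a peak in sgSNHG1 only, beside 2.69%. The 16 genes with no peak in either list were HOXA2, HOXA4, HOXA5, HOXA6, HOXA7, HOXA11, HOXA13, HOXB1, HOXB5, HOXB6, HOXB9, HOXC10, HOXC11, HOXD11, HOXD12 and HOXD13, beside 22.1% of all genes. With the window narrowed to 1 kb around the start site, 16 HOX genes had a peak in sgCtrl and 11 in sgSNHG1, where 61.7% and 61.3% of all genes had one.

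The 7 genes counted in sgCtrl only rested on 5 weak peaks, since HOXA9 shared its peak with HOXA10 and HOXB7 with HOXB8. Their summits held 22 to 27 fragments, close to the lowest called summit of 19, and of these genes only HOXA9 and HOXA10 had a peak with a −log10 p of at least 10 (11.4). The HOXA3 peak held 18 fragments, the lowest number called in its list. Whether peaks this weak went uncalled in the shorter sgSNHG1 list without a change in acetylation was not tested. Fewer acetylated cells and less acetylation per cell cannot be told apart in these pooled cells.

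Among the 14 HOX genes with a peak in both lists, the acetylated length hardly differed between the groups. The median log2 ratio of covered bases (sgSNHG1 over sgCtrl) was −0.00, beside −0.10 over the 14048 protein-coding genes with a peak in both lists, with 7 HOX genes higher and 7 lower. HOXB3 was the only HOX gene with a covered length at least 2-fold lower (798 bp against 245 bp in sgSNHG1, a log2 ratio of −1.70), beside 9.31% of all such genes, and none was 2-fold higher, beside 3.24%. The percentile of a gene's highest fold enrichment within its own list was lower in sgSNHG1 for 9 HOX genes and higher for 5, with a median change of −5.06 percentile points, beside −0.66 over all genes. HOXB3 and HOXB4 had the same highest peak, as did HOXC6 and HOXC8, so these are counts of genes and not of separate peaks. With lists of equal size the median change was −1.11, and with a −log10 p of at least 10 it was −6.95, so its size varied with the setting. Fold enrichment divides the fragments at a summit by the local background. At the HOXC8 peak that background was 16.8 fragments in sgCtrl and 26.1 in sgSNHG1, beside a genome background of 4.89 and 4.66. Why it was higher there was not tested.

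**Figure D1:**
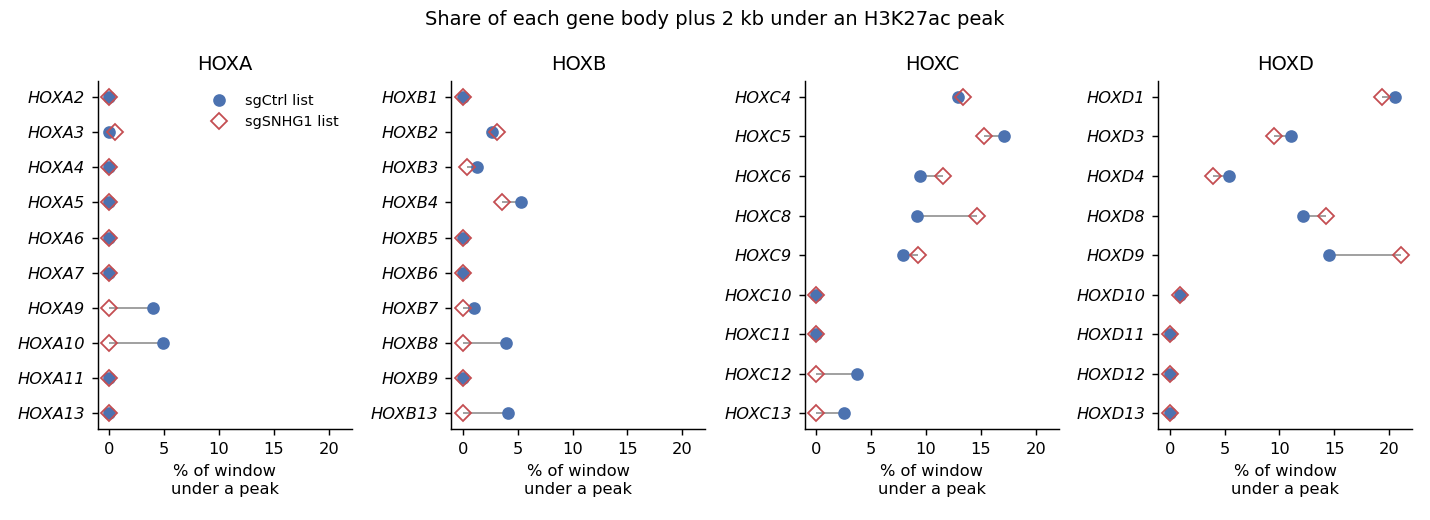
Percent of each HOX gene's body plus 2 kb on either side that lay under an H3K27ac peak, in the sgCtrl list (blue circles) and the sgSNHG1 list (open red diamonds), 1 panel per cluster with genes in the order of their paralogue numbers. HOXC4 to HOXC9 and HOXD1 to HOXD9 hold most of the covered bases in both lists, HOXC8 (9.20% and 14.7%) and HOXD9 (14.6% and 21.1%) lie higher in sgSNHG1, and the HOXA genes other than HOXA3, HOXA9 and HOXA10 are at 0 in both.

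The 4 clusters differed far more from each other than the groups did. Measured from the first to the last listed gene, HOXC (chr12:53938831-54056030, 117.2 kb) held 19 peaks in sgCtrl and 14 in sgSNHG1, and HOXD (chr2:176092721-176190907, 98.2 kb) held 11 and 13. HOXB (chr17:48528526-48728750, 200.2 kb) held 7 and 2 peaks, and HOXA (chr7:27100354-27200091, 99.7 kb) held 1 and 1. Thus 30 of the 38 HOX peaks of the sgCtrl list and 27 of the 30 of the sgSNHG1 list lay in HOXC and HOXD. Peaks covered 6.71% and 6.88% of HOXC and 8.45% and 8.61% of HOXD, and these spans ranked at the 97.2 and 98.7 percentile (HOXC) and the 98.2 and 99.2 percentile (HOXD) of all windows of the same length tiled along the chromosomes. HOXA and HOXB lay lower, at the 63.7 and 56.4 percentile for HOXA and the 75.5 and 48.8 percentile for HOXB. The windows were tiled without regard to genes. The median window of HOXA's length had 0.22% of its bases under peaks in sgCtrl and 0% in sgSNHG1. These percentiles are thus not ranks among stretches that hold genes. Among the HOX peaks of sgCtrl 71.1% overlapped a sgSNHG1 peak (27 of 38, 95% Wilson interval 55.2 to 83.0), beside 61.5% of all sgCtrl peaks, and 90.0% of the HOX peaks of sgSNHG1 overlapped a sgCtrl peak (27 of 30, 74.4 to 96.5), beside 79.2%.

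**Figure D2:**
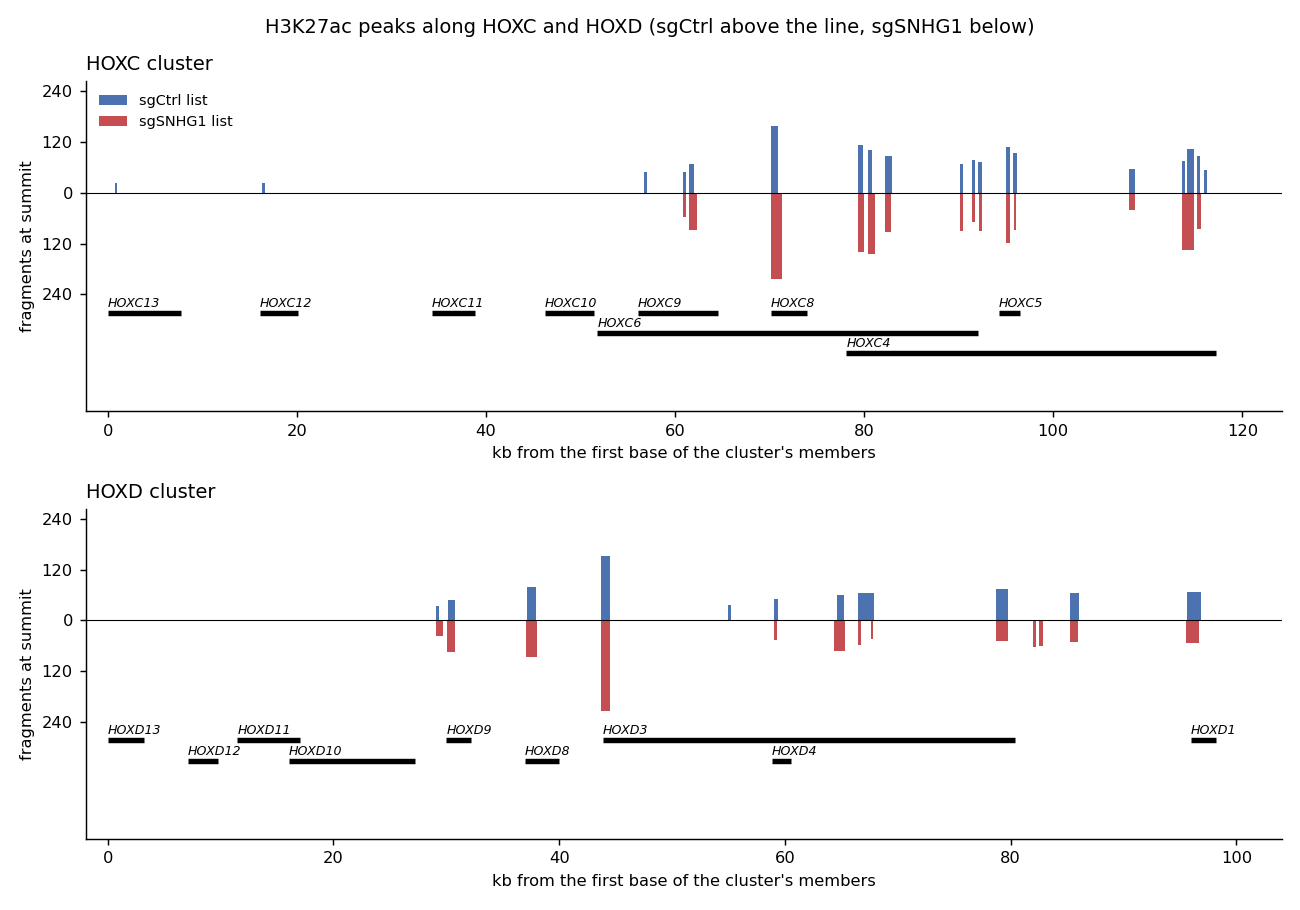
H3K27ac peaks along HOXC (top) and HOXD (bottom). The x axis is the distance in kb from the first base of the listed genes. Each bar is a peak whose height is the number of fragments at its summit, in sgCtrl (blue, upwards) and sgSNHG1 (red, downwards). Bars have the width of the peak, but narrow peaks are drawn at a minimum width and so wider than they are. Black lines are gene bodies. The tallest bars stand at HOXC8 (158 and 203 fragments) and between HOXD8 and HOXD3 (152 and 214), and few or no peaks lie over HOXC10 to HOXC13 and HOXD11 to HOXD13.

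In HOXC the acetylated stretch ran from HOXC9 to HOXC4 and its shared peaks held more fragments in sgSNHG1. All single peaks named here and in the next paragraphs, and HOXB2, HOXC5, HOXC9, HOXD4, HOXD9 and HOXD10, were picked out after their values were seen. The strongest peak lay at the start of HOXC8, a trunk gene of the central group, at chr12:54009016-54009731 in sgCtrl and chr12:54009016-54010157 in sgSNHG1. It had 158 fragments in sgCtrl and 203 in sgSNHG1, a log2 ratio of 0.43 (95% interval 0.13 to 0.74), and its width went from 716 to 1142 bp. HOXC6, another trunk gene whose annotated body spans HOXC8, had the same highest peak, with 10 peaks over 4191 bp in sgCtrl and 9 over 5096 bp in sgSNHG1. Further along, in the intron shared by the HOXC6 and HOXC4 models, 1 peak had 113 and 139 fragments (chr12:54018219-54018682 in sgCtrl, log2 ratio 0.37, 0.00 to 0.74). The HOXC4-HOXC6 intron peak printed above had 100 and 144 fragments (chr12:54019284-54019702 in sgCtrl, log2 ratio 0.60, 0.22 to 0.98). By scaled fragments, both of these intron peaks and the HOXC8 peak were higher in sgSNHG1 with intervals above 0, the first intron peak only just (lower end 0.001). By fold enrichment the log2 ratio was −0.25 at HOXC8, −0.15 at the first intron peak and 0.06 at the second.

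HOXC4, the most anterior gene of the cluster, had 13 peaks over 5575 bp in sgCtrl and 11 over 5766 bp in sgSNHG1. The peak beside its start site (chr12:54052971-54053674 in sgCtrl) had 103 and 135 fragments, a log2 ratio of 0.46 (0.08 to 0.85). In sgSNHG1 it ran together with a neighbouring peak into 1 peak of 1261 bp. HOXC9, the only posterior gene of HOXC with a peak in both lists, had 68 and 89 fragments at its highest summit, in the coding sequence (log2 ratio 0.46, −0.01 to 0.94). HOXC5, a central gene, had 3 peaks in each list, over 1082 and 964 bp. Not every HOXC peak was higher: a peak in the HOXC4 intron at chr12:54046815-54047478 had 56 and 41 fragments (log2 ratio −0.38, −0.997 to 0.23), an interval that holds 0.

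Across the 14 shared HOXC peaks the median log2 ratio of fragments was 0.36, with 11 higher and 3 lower, beside −0.13 over the 38585 shared peaks of the lists. The local background under the HOXC peaks was higher too, in 13 of 14, with a median log2 ratio of 0.26 beside −0.05 over all shared peaks. At HOXC8 the background was 16.8 fragments in sgCtrl and 26.1 in sgSNHG1, and at the HOXC4-HOXC6 intron peak it was 26.2 and 36.4. Because no input library is named, this background may count fragments of the same peaks. It is thus not a separate measure of the stretch around the summits. Measured by fold enrichment, which divides by that background, the direction turned: the median log2 ratio over the 14 peaks was −0.094, and the HOXC8 peak went from 8.93 in sgCtrl to 7.53 in sgSNHG1. In the 1 Mb on either side of HOXC, 37 shared peaks had a median of 0.03, with a background of −0.06.

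The 4 HOXC peaks called in sgCtrl alone lay at both ends of the cluster and at HOXC9. HOXC13 and HOXC12, posterior genes known from hair and nail and from the tail end of the embryo, each had a weak peak at the start of the gene. HOXC13 had 22 fragments (296 bp, fold enrichment 3.90) and HOXC12 had 24 (300 bp, fold enrichment 4.24). A peak with more fragments lay over an exon of the antisense RNA HOXC-AS2 within the HOXC9 body (50 fragments, fold enrichment 3.66), and another over the HOXC4 coding sequence (53 fragments, fold enrichment 2.35). No HOXC peak was called in sgSNHG1 alone. HOXC10 and HOXC11 had no peak in either list, so the acetylated stretch ended at HOXC9 in sgSNHG1.

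In HOXD the acetylated stretch ran from HOXD10's downstream flank to HOXD1, and by fragments the shared peaks whose intervals lay above 0 were at HOXD9 and between HOXD8 and HOXD3. By fold enrichment the log2 ratios were 0.40 and 0.05 at these peaks, 0.18 at HOXD4 and 0.39 at the HOXD3 start site. They were −0.08 at the peak beside HOXD10, −0.14 at HOXD8 and 0.02 in a HOXD3 intron. Toward the anterior end they were below 0, as by fragments: −0.48 at the last coding exon of HOXD3, −0.28 at HAGLROS and −0.20 at HOXD1. The HOXD8-HOXD3 peak (chr2:176136458-176137194 in sgCtrl), at the upstream end of the annotated HOXD3 body and over an exon of the antisense RNA HOXD-AS2, had 152 fragments in sgCtrl and 214 in sgSNHG1. The log2 ratio was 0.56 (0.26 to 0.87), and the local background went from 14.6 to 20.2 fragments. HOXD9, a posterior gene that acts in limb and trunk patterning, had 49 and 75 fragments at its highest summit (log2 ratio 0.69, 0.15 to 1.24) and 905 and 1310 bp under 2 peaks. HOXD8 had 78 and 86 fragments (log2 ratio 0.21, −0.25 to 0.67), an interval that holds 0. HOXD10 was reached only by the edge of a peak, over 146 and 141 bp of its window.

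Toward the anterior end no interval lay above 0. HOXD3, which acts in the hindbrain and neck region, had 6 peaks over 4471 bp in sgCtrl and 7 over 3853 bp in sgSNHG1. At its start site the fragments were 61 and 72 (log2 ratio 0.31, −0.20 to 0.83), and at its last coding exon (chr2:176171379-176172488 in sgCtrl) they were 75 and 48 (log2 ratio −0.57, −1.13 to −0.03). The second of these was the only shared HOX peak that was lower with an interval below 0. HOXD4 had 50 and 46 fragments (log2 ratio −0.05, −0.66 to 0.56). HOXD1, the most anterior HOXD gene, had 67 and 54 fragments (log2 ratio −0.24, −0.78 to 0.30) under a peak of 1279 and 1207 bp. Over the 10 shared HOXD peaks the median was 0.07, with 5 higher and 5 lower, and 10 shared peaks in the 1 Mb on either side had a median of 0.19, so HOXD as a whole did not lie above its surroundings.

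HAGLR, the long non-coding RNA that runs antisense between HOXD1 and HOXD3, carried the only HOXD peaks called in sgSNHG1 alone. They lay over HAGLR exons at chr2:176174691-176174918 and chr2:176175192-176175591 and held 62 and 61 fragments, with fold enrichments of 3.93 and 3.92. These summits held more than the lowest called number of 18, but over local backgrounds of 15.0 and 14.8 fragments (−log10 p of 19.5 and 19.2). The shared peak at HAGLROS, the transcript on the opposite strand, had 64 fragments in sgCtrl and 52 in sgSNHG1 (log2 ratio −0.23, −0.79 to 0.32). The only HOXD peak called in sgCtrl alone lay in a HOXD3 intron and held 36 fragments.

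When peaks within 12.5 kb were joined into regions, ranked by the sum of fold enrichment times length, HOXC and HOXD lay near the top of both lists. The HOXC region ranked 279 of 27445 in sgCtrl (18 peaks over 65.2 kb) and 97 of 24968 in sgSNHG1 (15 peaks over 61.0 kb). The HOXD region ranked 146 in sgCtrl (11 peaks over 67.8 kb). In sgSNHG1 the gap left by the HOXD3 intron peak split it into 2 regions, of which the higher ranked 380 (9 peaks over 37.6 kb). The ranked HOXD regions were thus not the same stretch, the lists differ in length, and no change was read from these ranks.

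HOXA and HOXB carried few and weak peaks. In HOXA the sgCtrl peak (chr7:27173384-27174048) lay in the coding sequence of HOXA10 and within a HOXA9 intron, with 27 fragments over 665 bp and a fold enrichment of 4.44. HOXA9 and HOXA10 are posterior genes known from blood progenitors and from limb and reproductive tract development. In sgSNHG1 the only peak lay in the coding sequence of HOXA3 (280 bp, 18 fragments, fold enrichment 3.36), a gene of pharyngeal arch development. The groups shared no HOXA peak. The highest summits of HOXA, 27 and 18 fragments, lay at the 9.37 percentile of summits in sgCtrl and the 0.04 percentile in sgSNHG1.

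**Figure D3:**
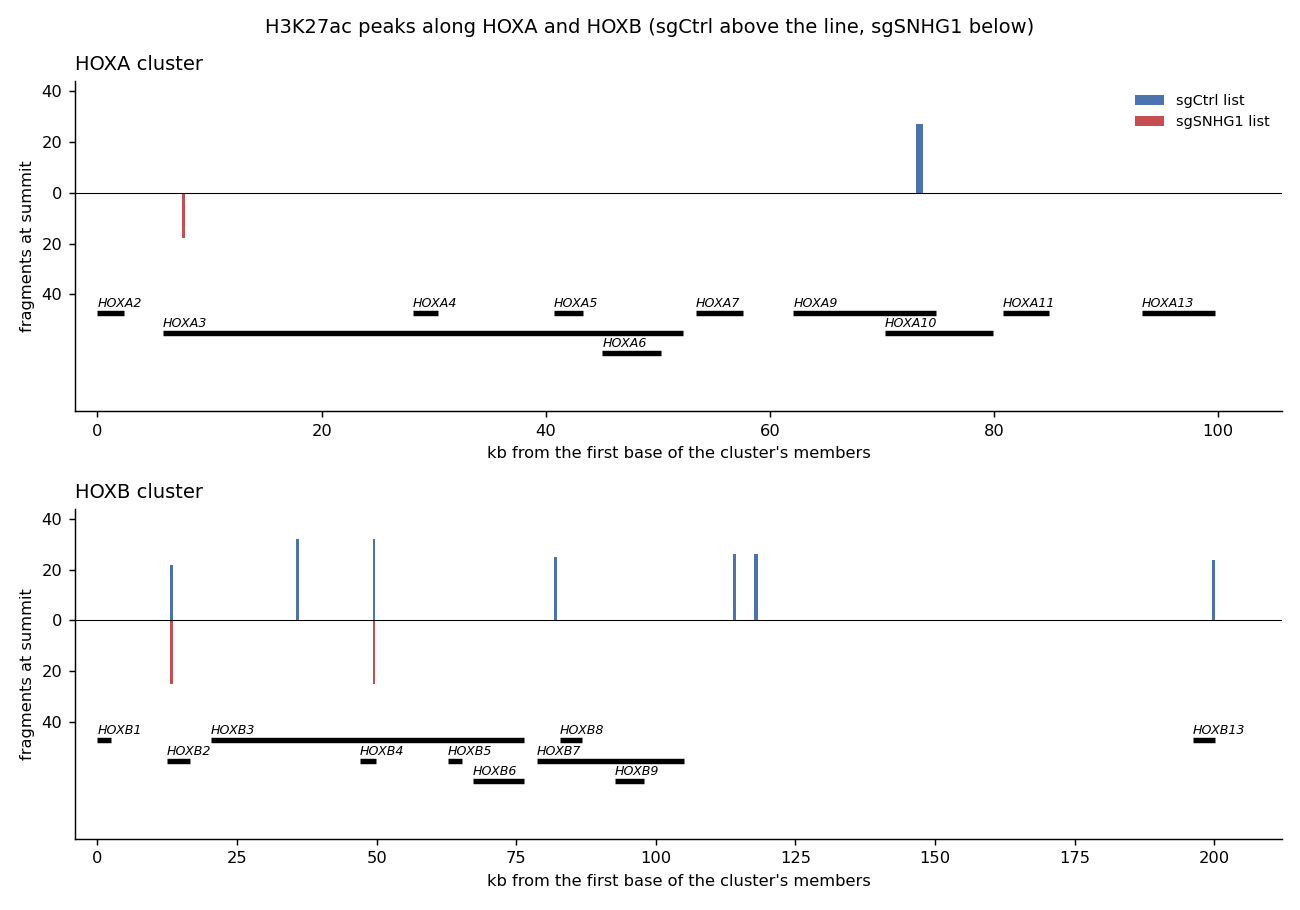
H3K27ac peaks along HOXA (top) and HOXB (bottom), drawn as for HOXC and HOXD, with the y axis in fragments at the summit on a scale from 0 to 40. HOXA shows a single bar in each list at different places, and HOXB shows 7 bars of 22 to 32 fragments in sgCtrl and 2 bars of 25 in sgSNHG1.

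In HOXB, 2 peaks were shared. The peak near the start of HOXB4, a gene known from blood stem cells, lay within an intron of HOXB3 too and had 32 fragments in sgCtrl and 25 in sgSNHG1 (log2 ratio −0.29, −1.10 to 0.52). The peak in HOXB2, a hindbrain gene, had 22 and 25 (log2 ratio 0.26, −0.63 to 1.15). Both intervals held 0. The 5 peaks called in sgCtrl alone held 24 to 32 fragments: an intron of HOXB3 (32), HOXB7 near HOXB8 (25), HOXB13 (24) and 2 peaks in an intron of LINC03057 (26 each). HOXB13, the most posterior HOXB gene and known from prostate and tail development, had its peak in the coding sequence over 326 bp at a fold enrichment of 4.05. With a −log10 p of at least 10, HOXB held 2 peaks in sgCtrl and 1 in sgSNHG1.

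Grouped by place along the axis, the HOX genes counted in sgCtrl only were central and posterior ones. Of 11 anterior genes (paralogue numbers 1 to 4), 7 had a peak in both lists, none in sgCtrl only, 1 in sgSNHG1 only and 3 in neither. Of 11 central genes (5 to 8) these numbers were 4, 2, 0 and 5, and of 16 posterior genes (9 to 13) they were 3, 5, 0 and 8. These counts rest on the same weak peaks as above. The 3 posterior genes with a peak in both lists were HOXC9, HOXD9 and HOXD10.

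The RefSeq promoter table held 20 of the 38 HOX genes, as the 250 bases before and 50 bases after a start site, and HOXC4 and HOXC5 had the same entry. Only 2 of these 20 entries, those of HOXD1 and HOXD3, overlapped a peak, in both lists. Of the 34961 entries on chromosomes 1 to 22 and X, 9036 (sgCtrl) and 10002 (sgSNHG1) did. The sgCtrl peak at HOXD3 reached only bases after the start site, so the HOXD3 bases printed lay outside it. Both promoters are printed with that of HOXD11, which lay under no peak and held all 3 motifs searched on both strands: CACGTG (the E-box that MYC proteins bind), TGATNNAT (a type of site that HOX and PBX proteins bind together) and TAATTA (a homeodomain core site). Matches of different motifs were allowed to overlap and are in capitals. The sequences are the 250 bases before the start, on the plus strand of GRCh38.p14, at chr2:176188418-176188667 (HOXD1), chr2:176157057-176157306 (HOXD3) and chr2:176107030-176107279 (HOXD11).
HOXD1 promoter: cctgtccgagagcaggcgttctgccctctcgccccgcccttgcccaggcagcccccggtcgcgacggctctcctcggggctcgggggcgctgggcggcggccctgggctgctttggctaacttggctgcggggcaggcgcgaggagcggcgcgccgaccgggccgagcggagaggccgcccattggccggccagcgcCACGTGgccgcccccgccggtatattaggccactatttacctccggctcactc
HOXD3 promoter: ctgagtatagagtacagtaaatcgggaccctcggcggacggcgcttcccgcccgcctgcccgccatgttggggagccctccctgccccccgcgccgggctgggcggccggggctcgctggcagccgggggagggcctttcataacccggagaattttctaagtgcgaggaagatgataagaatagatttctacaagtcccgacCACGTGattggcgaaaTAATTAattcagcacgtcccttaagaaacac
HOXD11 promoter: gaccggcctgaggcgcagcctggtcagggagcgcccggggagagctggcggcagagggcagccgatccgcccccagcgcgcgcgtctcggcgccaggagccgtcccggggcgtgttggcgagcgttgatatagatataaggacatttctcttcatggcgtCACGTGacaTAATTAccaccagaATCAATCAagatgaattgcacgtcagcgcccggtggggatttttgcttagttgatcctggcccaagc

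CACGTG was present in 8 of the 20 HOX promoters (40%), beside 7.26% of all 35116 promoters of the table. It was in both entries that overlapped a peak and in 6 of the 18 that did not, HOXD11 among them. TGATNNAT was present in 3 (15%, beside 7.40%) and TAATTA in 2 (10%, beside 4.84%). The HOX promoters were also richer in CG dinucleotides, with a median of 22.5 per 300 bases beside 14, and the part of this in the count of CACGTG, which holds a CG, was not tested. In the 200 bases around HOX summits, TGATNNAT and TAATTA were present in none of the 38 sgCtrl and none of the 30 sgSNHG1 windows, beside 1.29% and 1.38% of all peaks for the HOX and PBX site and 0.27% and 0.38% for the homeodomain site. CACGTG was present in 0 and 1 of them, beside 4.46% and 4.28% of all peaks. With so few windows these counts lay near the shares over all peaks.

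The clusters also hold microRNAs, which act on HOX messages among others. Of 6 microRNA genes, 3 had a peak within 2 kb in both lists and MIR196A1, MIR196A2 and MIR196B had none in either. MIR615 lies in a HOXC5 intron, and its hairpin (chr12:54033950-54034045) lay wholly under the MIR615 peak, which had 109 fragments in sgCtrl and 118 in sgSNHG1 (log2 ratio 0.19, −0.20 to 0.57). The mature sequences of RefSeq are given for the hairpin under a peak and for the family without a peak, with the seed (bases 2 to 8) in capitals.
hsa-miR-615-3p: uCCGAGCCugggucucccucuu
hsa-miR-196a-5p: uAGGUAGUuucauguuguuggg
hsa-miR-196b-5p: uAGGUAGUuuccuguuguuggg

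The miR-196 sequences share their seed and differ by A12C (miR-196a-5p first, counted from the 5′ end), and miR-615-3p has another seed. The nearest peak to MIR196B, within the annotated HOXA9 body, was 3820 bp away in sgCtrl and 61329 bp in sgSNHG1, after the HOXA10 peak was no longer called.

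Outside the HOX genes, the lists of genes that act with HOX factors or on the clusters were set beside the same background as the HOX genes (70.3% with a peak in both lists). All 9 HOX cofactors (MEIS, PBX and PKNOX genes, whose products bind DNA with HOX proteins), all 16 Polycomb genes and all 10 MLL and Trithorax genes had a peak in both lists. Among them the covered length was at least 2-fold lower at PKNOX2 (3200 and 280 bp) and at CBX7 (1755 and 824 bp), a Polycomb subunit, and at least 2-fold higher at RBBP5 (605 and 1384 bp), a core subunit of MLL complexes, counts near the 9.31% lower and 3.24% higher of all genes. Of 15 upstream regulators of HOX expression, 8 had a peak in both lists, EGR2 in sgCtrl only (853 bp) and 6 in neither (RXRG, CYP26B1, RARB, CYP26A1, CDX2 and CDX4). The retinoic acid receptor RARG (1802 and 611 bp) and the retinoic acid hydroxylase CYP26C1 (1448 and 238 bp) had at least 2-fold less covered length in sgSNHG1. CDX2 and CDX4 are caudal-type factors that act on central and posterior HOX genes in the embryo, and the RAR, RXR and CYP26 genes belong to retinoic acid signalling, which acts on the anterior ones.

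Of the 13 long non-coding RNAs of the clusters, 6 had a peak in both lists, HOXC-AS2 in sgCtrl only, HOXA-AS2 in sgSNHG1 only and 5 in neither (HOTAIR, HOTTIP, HOXA-AS3, HOXC-AS3 and HOXB-AS4). HOXB-AS3 had at least 2-fold less covered length in sgSNHG1, under the same peaks as HOXB3. Next to the clusters, 6 of 12 neighbouring genes had a peak in both lists, 4 in neither (SKAP2, CALCOCO1, PRAC1 and PRAC2) and 2 in sgSNHG1 only, which were EVX1 and EVX2. SMUG1, a DNA repair gene beyond HOXC4, had at least 2-fold less covered length in sgSNHG1 (2498 and 1225 bp). A shared peak 4340 bp past HOXC4, in an intron of FLJ12825, had 80 fragments in sgCtrl and 41 in sgSNHG1, so the higher values of HOXC did not run on past HOXC4 there.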

How the data were processed

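H3K27ac ChIP-seq peaks of 4 samples in 2 groups, taken from their labels, were analysed. The authors trimmed reads with cutadapt, aligned them to GRCh38 with BWA (versions not given in the sources used here), merged the replicates of each group, and ran MACS2 on the merged reads at a p-value of 1e-06, keeping duplicates. The deposited lists give the fold enrichment, the −log10 p and a score of each peak, as the authors' peak caller wrote them. The paper's methods name no input library.

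From these, summit fragments were recovered, assuming a pseudocount of 1 in the fold enrichment and a Poisson p-value (within 0.01 of a whole number), and the local background is the caller's own at the summit. Peaks of the lists were shared if they overlapped by at least 1 bp. Genes came from GENCODE release 44. Intervals of ratios are exact conditional Clopper-Pearson intervals and those of shares are Wilson intervals (95%). Python 3.11.15, numpy 2.4.6, pandas 2.3.3 and scipy 1.17.1 were used, and the computations were tested on simulated data. The planned limma test on values per replicate was not run, since the lists hold pooled values.

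The members and lists were chosen with earlier results of these data known. The rule for named genes took members with a peak in 1 list only, the 3 members of highest sgCtrl fold enrichment in each cluster, members with a 2-fold difference in covered length and members without a peak, and genes of the other lists only where a peak was in 1 list or covered length differed 2-fold. Some genes of these lists are not reported here.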

Additional observations from a re-analysis of the deposited data

Results flagged for a closer look

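EVX2 and EVX1, homeobox genes that lie next to the posterior ends of HOXD and HOXA, had H3K27ac peaks in the sgSNHG1 list and none in the sgCtrl list, outside the HOX genes that the comparisons are about. EVX2 had 2 peaks in sgSNHG1 over 710 bp, at chr2:176080181-176080632 in its coding sequence (23 fragments, fold enrichment 4.24) and at chr2:176080902-176081159 in its intron (20 fragments, fold enrichment 3.71). EVX1 had 1 peak over 242 bp (20 fragments, fold enrichment 3.71). The lowest summit called in this list held 18 fragments, HOXD13 and HOXA13 beside these genes had no peak in either list, and no replicate error was available to test the difference.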

How the results depend on the processing

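Of 80 values recomputed under alternative settings, 65 stayed within the limits set for them and 15 moved. These limits were wide. The 21 HOX genes with a peak in sgCtrl counted as unmoved at 15 with lists of equal size, where sgSNHG1 had 15 too. The ratio of covered length along HOXC had limits of 0.374 to 1.45, taken from the numbers of peaks. HOX genes with a peak in sgCtrl only numbered 7, but 2 with a −log10 p of at least 10 and 2 with lists of equal size. Those in sgSNHG1 only numbered 1, but 0, 2 and, within 10 kb of the gene body, 2. With a −log10 p of at least 10, HOXA held 0 peaks in sgSNHG1, and HOXB 2 in sgCtrl (also 2 with equal lists) and 1 in sgSNHG1. Merging peaks within 1 kb left 11 peaks along HOXC in sgCtrl and 8 in sgSNHG1. The shared percent of sgCtrl HOX peaks was 86.2 at the stricter threshold and 89.7 with equal lists. The median log2 ratio of fragments along HOXC was 0.49 when scaled by the median of shared peaks and −0.094 by fold enrichment, which divides by the local background. Along HOXD it went from 0.074 to −0.029 by fold enrichment, so both signs turned. These measures of fragments, their alternatives and the start site window were chosen after seeing the data. Covered lengths along HOXC and HOXD stayed within 0.951 to 1.15 times those of sgCtrl. No paired analysis was possible because the authors pooled both replicates of a group before calling peaks, and leaving out a replicate was not run for the same reason. Summits near the lowest called number of fragments (19 and 18) limit what the lists can show for HOXA, HOXB and the posterior HOXC genes.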
